A study of Equus caballus with 4 samples.

Results

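The mRNA of collagen chains, and of the enzymes and accessory proteins that modify, fold and crosslink them, was compared between HMB-treated and control equine satellite cells (ESC). Members were the genes whose symbol in the array annotation names a collagen chain (COL, a type number, A and a chain number), or is LOX, SERPINH1, PCOLCE, or P4HA, PLOD or LOXL with a number. There were 48 such genes with 141 probes, out of 24998 gene or transcript names on the array: 38 chains with 112 probes, and 10 enzymes and accessory proteins with 29 probes. A further 8 genes of these families carry no symbol in the annotation and were recognised from the description of their 17 probes. They are given apart from the members.

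The ESC came from m. semitendinosus, had been preplated to limit fibroblasts, and had been moved to plates coated with collagen I before differentiation. HMB (β-hydroxy-β-methylbutyrate, a metabolite of leucine) was present for the last 24 h before harvest on day 3 of differentiation, at a dose that the methods give as 50 µM and the labels as 50 µg, and control cells stayed in differentiation medium alone. RNA was hybridised to 4 two-colour arrays on 1 slide (*n* 4), always with HMB-treated cells in Cy5 and control cells in Cy3, so an HMB effect and a preference of a probe for 1 dye cannot be told apart. The animal behind each array was not found in the paper's text, so the p-values measure the spread between these 4 arrays, whose number limits the precision. In the descriptions of the samples the treatment is named GO and the replicate number is always the same, and the titles were followed instead.

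Collagens are trimers of chains wound into a helix, in which glycine recurs at a fixed interval along each chain. Inside the cell, prolyl and lysyl hydroxylases modify the nascent chains and SERPINH1 (HSP47) chaperones the folded procollagen. Outside it, propeptides are removed and lysyl oxidases crosslink the assembled fibrils. In skeletal muscle, types I and III form most of the fibrillar matrix, type IV forms the network of the basement membrane that encloses each fibre and its satellite cells, and fibroblasts are a main source of the fibrillar chains.

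Each probe is a stretch of 60 bases. GGN, the codons of glycine, recurred every 9 bases along the whole probe in 3 of the 112 probes of chains and in 0 of the 29 probes of enzymes and accessory proteins, which places these 3 in the coding sequence of a helix. They are shown because their own bases identify them as collagen, with the recurring GGN codons in capitals, 5′ to 3′, as the files give them.
COL11A1: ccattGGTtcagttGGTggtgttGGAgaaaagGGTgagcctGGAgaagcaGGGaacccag
COL2A1: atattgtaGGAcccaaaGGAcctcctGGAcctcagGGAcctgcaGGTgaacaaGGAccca
COL25A1: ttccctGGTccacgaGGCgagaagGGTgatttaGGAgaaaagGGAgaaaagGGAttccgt
The files place them on the EquCab1 genome at chr5:36733403-36738146 on the + strand (*COL11A1*, ENSECAT00000024831), at chr6:65738428-65738688 on the - strand (*COL2A1*, NM_001081764) and at chr2:102210247-102214398 on the + strand (*COL25A1*, ENSECAT00000018719). Each is spread over more than 60 bases of genome, so it crosses an exon boundary and is exonic. The *COL11A1* and *COL2A1* probes were tested. The *COL25A1* probe was well above background in Cy5 on 1 array and in Cy3 on 0, and was not.

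Values are log2 ratios of HMB-treated over control cells after the authors' lowess normalisation, so a value above 0 stands for more mRNA with HMB. Testing needed a probe with 1 dye well above background throughout the arrays, and a gene is represented by its brightest tested probe. Of the 48 members, 29 were tested, 19 chains and 10 enzymes and accessory proteins. Of these 29, 10 (34.5%) had an adjusted p of at most 0.05 in limma, 2 higher and 8 lower in HMB-treated cells. Over all 15613 tested genes the share was 22.4%, with 10.9% higher and 11.6% lower. The chains *COL11A1*, *COL8A2*, *COL13A1*, *COL18A1* and *COL4A1*, the lysyl hydroxylase *PLOD2* and the lysyl oxidases *LOXL2* and *LOXL1* were lower. The lysyl oxidase *LOXL3* and the chain *COL27A1* were higher, but *COL27A1* passed the filter through the HMB-treated cells alone. With both dyes required, 27 members were tested, 1 higher and 8 lower. The share over all genes under that filter is not given here, so this count has no background beside it. The brightest chains of types I and III, *COL1A2* and *COL3A1*, did not pass the threshold. In bulk RNA, fewer cells that express a gene and less of its RNA per cell cannot be told apart.

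The median log2 ratio of the 29 members was −0.12, against 0.02 over all tested genes, and −0.06 with normexp background correction and loess. Of the 29 means, 21 were below 0, against 7274 of 15613 over all tested genes. Without lowess, with each array only centred on its median, the members' median was 0.005 and that of all tested genes 0.04, so the sign of the members' median depended on lowess. The calls then split into 6 higher and 4 lower, against 2 and 8 with lowess, and they were largely of other genes. Of the 10 calls with lowess, 4 stayed (*COL8A2*, *COL11A1*, *COL13A1* and *LOXL3*), 4 no longer passed the threshold, and *COL18A1* and *LOXL1* turned in sign. Over all tested probes the split was 4633 higher and 3198 lower without lowess, against 3071 and 3186 with it.

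**Figure D1:**
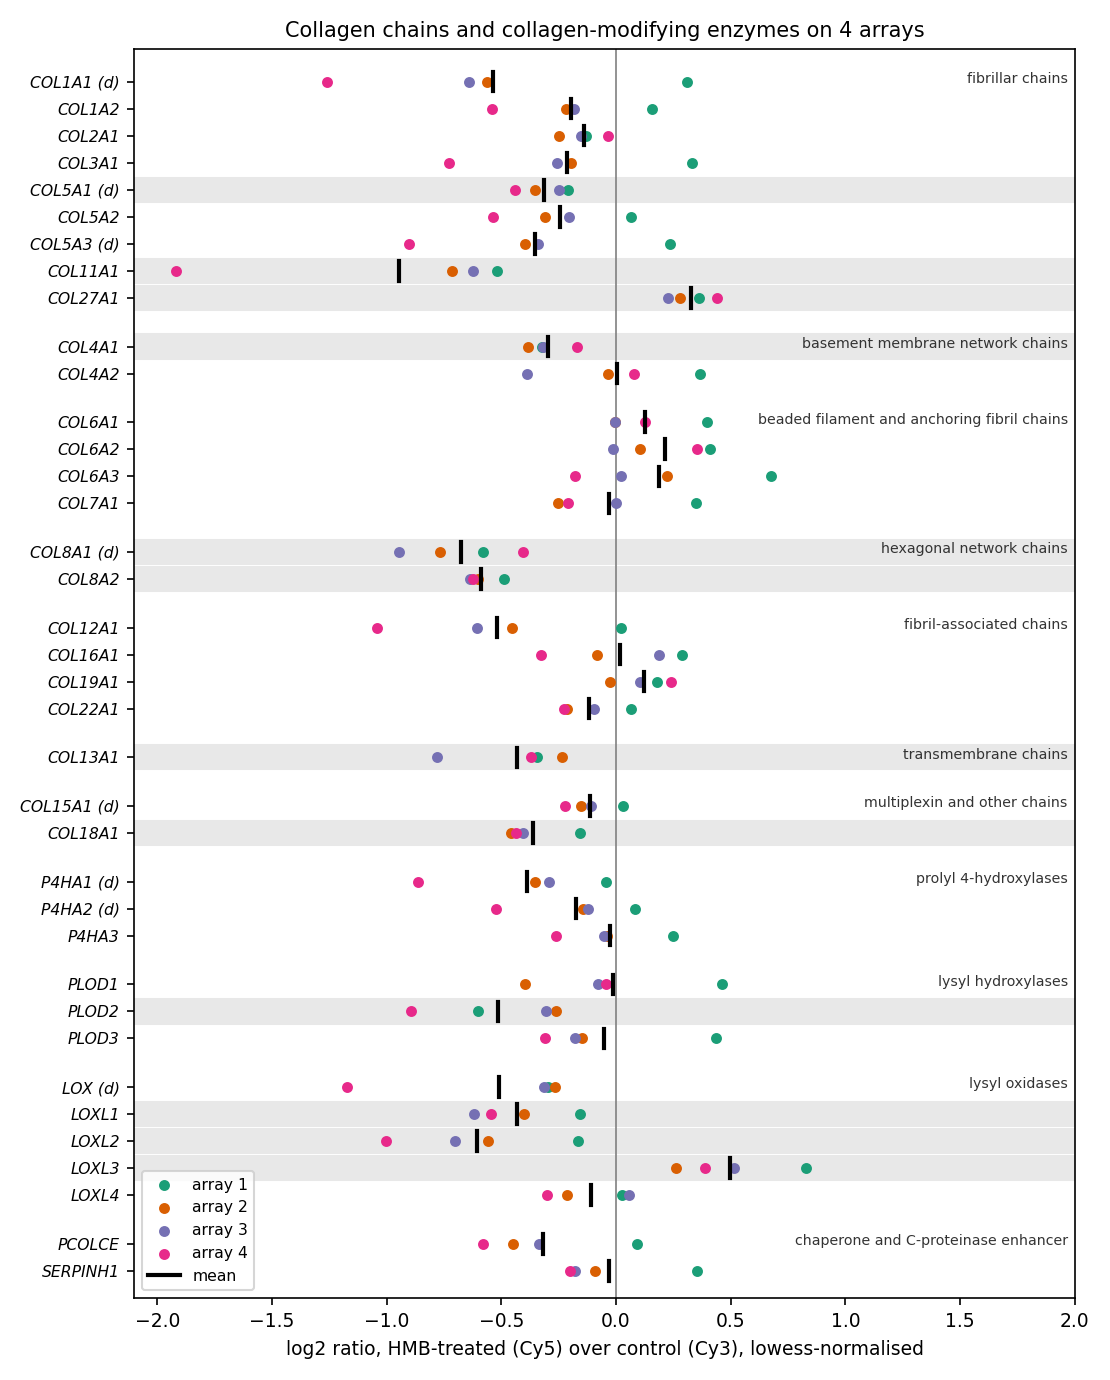
Log2 ratio of HMB-treated over control cells (horizontal axis) of the 29 tested members and of the 8 genes named by description (d), by role. Points are the 4 arrays, the black bar is their mean and grey bands mark an adjusted p of at most 0.05; *COL11A1* has the lowest mean, −0.94, and *LOXL3* the highest, 0.50.

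The arrays did not place the members alike. The members' median was 0.16 on array 1, −0.22 on array 2, −0.18 on array 3 and −0.30 on array 4. Array 1 gave the highest of the 4 ratios for 22 of the 29 members, and array 4 the lowest for 15. Over the 15605 tested genes with a value on every array, array 1 gave the highest for 5307 and array 4 the lowest for 5371. Of the 29 members, 11 had the same sign on all 4 arrays, as had 7159 of all 15613 tested genes. Among the 11 were the 10 that passed the threshold and *COL2A1*, the chain of cartilage fibrils.

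The calls rested on the test, the filter and all 4 arrays. With each probe tested on its own variance, 1 of the 10 calls stayed (*COL8A2*), and with no filter on dim probes 3 stayed (*COL8A2*, *COL27A1* and *COL4A1*). Of the 10 calls, 6 stayed without array 1, 3 without array 2, 1 without array 3 and 8 without array 4. Over all tested probes, too, fewer passed the threshold in each of these settings, with counts given at the end. The loss of calls was thus not particular to the members. Without array 1, *COL11A1*, *COL13A1*, *COL4A1* and *PLOD2* were lost, and *COL12A1*, *PCOLCE* and *COL21A1* passed the threshold as lower, so that 2 of 30 tested members were higher and 7 lower. *COL21A1* was not tested with all 4 arrays, was well above background in Cy5 on 0 of them, and passed the filter through the control cells alone, so it adds no support. Without array 2 there were 1 and 2 of 29, without array 3 there were 0 and 1, and without array 4 there were 2 and 6. *COL8A2* was the member that stayed past the threshold in each of these, and in each of the 13 alternative settings run on single genes. *LOXL3* stayed past it without array 1, 2 or 4, and had an adjusted p of 0.071 without array 3. *COL13A1* passed it with all 4 arrays and in none of these, with an adjusted p at the same probe of 0.055 (without array 2) to 0.072 (without array 3).

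Among the fibrillar chains, 6 of 8 members were tested, with 1 higher and 1 lower (33.3%, against 22.4% of all tested genes). The higher one, *COL27A1*, passed the filter through the HMB-treated cells alone, so it adds no support to this share. *COL1A2* encodes the α2 chain of type I collagen, the most abundant collagen of tendon, bone and muscle connective tissue. Its probe was among the brightest on the arrays, at rank 3 of 27383. Arrays 1 to 4 gave log2 ratios of 0.16, −0.22, −0.18 and −0.54, a mean of −0.20 ± 0.28 (SD, *n* 4) and an adjusted p of 0.25. Array 1 lay above 0 and the others below, so the mean was smaller than the spread between arrays. The 9 tested probes of *COL1A2* lay at 3 places in the genome, and the annotation gives the probe that stands for the gene to another transcript than the other 8. The 5 overlapping probes nearest the 5′ end had means of −0.50 to −0.40, the next 3 of −0.59 to −0.28, and the probe nearest the 3′ end, the one that stands for the gene, −0.20. Of the 9, 2 had an adjusted p of at most 0.05, both at the middle place and both lower, with a lowest adjusted p of 0.028.

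*COL3A1*, the chain of type III collagen, had log2 ratios of 0.33, −0.20, −0.26 and −0.73, with a mean of −0.21 ± 0.43 (SD, *n* 4) and an adjusted p of 0.37. As for *COL1A2*, array 1 was the highest and array 4 the lowest. Its 7 tested probes also lay at 3 places, and their means differed in sign. The 5 overlapping probes at the 5′ place, of another transcript in the annotation, had means of 0.07 to 0.09, whereas the other probes had −0.30 and −0.21, and 0 of the 7 passed the threshold in limma.

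Type V collagen joins type I in fibrils and limits their diameter. Its α2 chain *COL5A2* had log2 ratios of 0.07, −0.31, −0.20 and −0.54, with a mean of −0.25 ± 0.25 (SD, *n* 4) and an adjusted p of 0.13. The probes at the other places of *COL5A2* had means of −0.22 and −0.20. On EquCab1 the probes of *COL5A2* (chr18:54083653-54083712, - strand) and *COL3A1* (chr18:54060502-54060561, + strand) lie close together, and the genes face each other with their 3′ ends.

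The ratios of these bright chains depended on the normalisation. When lowess was left out and each array was only centred, ratios increased with probe brightness, and the median over the brightest 1% of tested probes (274 probes) was 0.68, 1.05, 1.24 and 1.22 on arrays 1 to 4. Over the means of the 4 arrays it was 1.04 without lowess, 0.41 with normexp background correction and loess, and 0.11 with the authors' lowess. Without lowess, all 274 of these probes had means above 0. On arrays 1 to 4, *COL1A2* then had 0.86, 0.82, 1.06 and 0.70, a mean of 0.86 and an adjusted p of 0.0011. Its other probes, which are dimmer, had 0.39 to 0.67 at the middle place and −0.005 to 0.03 at the 5′ place. *COL3A1* had 0.95, 0.78, 0.87 and 0.40, with a mean of 0.75 and an adjusted p of 0.0034, and its other probes had 0.51 and, at the 5′ place, 0.11 to 0.16. The means of the probes that stand for these genes lay below the 1.04 of the brightest probes. With normexp and loess they were 0.17 and 0.10. Over the 13 alternative settings, the adjusted p ranged from 0.0011 to 0.57 for *COL1A2* and from 0.0034 to 0.90 for *COL3A1*. *COL5A2* (0.28) and *PCOLCE* (0.44) also turned to above 0 and past the threshold without lowess, while the other probes of *COL5A2* had 0.24 and, at the probe of another transcript, −0.17. No direction is given for these 4 genes. How much of the rise with brightness came from the dyes was not tested.

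**Figure D2:**
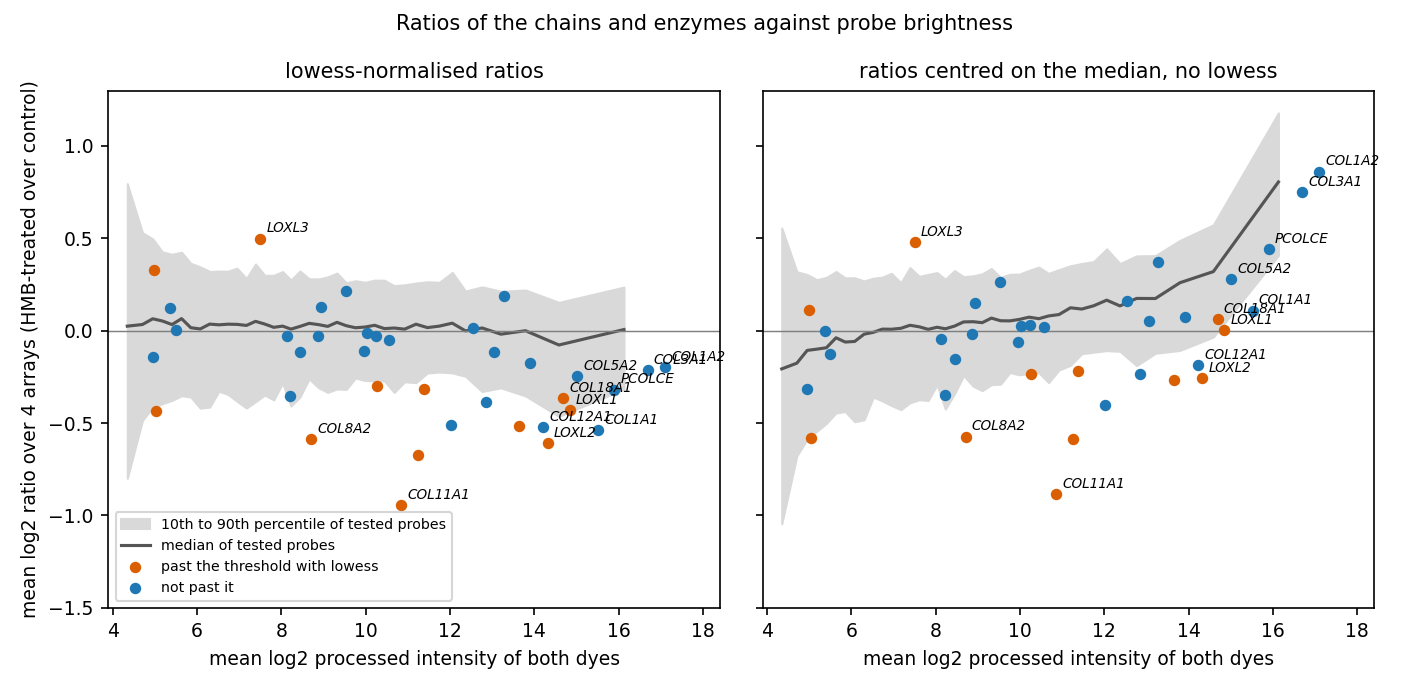
Mean log2 ratio over 4 arrays (vertical axis) against the mean log2 processed intensity of both dyes (horizontal axis) for the members and the genes named by description, with lowess (left) and centred without lowess (right). The line and grey band are the median and the 10th to 90th percentile of tested probes in 40 bins of intensity; on the right, bright probes lie above 0, and *COL1A2* (0.86) and *COL3A1* (0.75) lie with them.

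*COL11A1*, a minor fibrillar chain that takes part in nucleating fibrils, had the lowest mean of the members. Its log2 ratios were −0.52, −0.72, −0.62 and −1.92, with a mean of −0.94 ± 0.66 (SD, *n* 4), 0.52 times the control level, and an adjusted p of 0.033. It was lower on 4 of 4 arrays, with array 4 far below the others. Without array 4 the mean was −0.62 with an adjusted p of 0.0087, and without array 1, 2 or 3 the adjusted p was 0.057 to 0.070. It was 0.18 with the probe tested on its own variance and 0.15 with no filter, in a range of 0.0087 to 0.18 over the 13 settings. A probe beside it had a mean of −0.88 and also passed the threshold. The helix-coding probe printed above, nearer the 5′ end, had log2 ratios of −0.09, −0.91, 0.24 and −1.04, with a mean of −0.45 and an adjusted p of 0.19. The probes of *COL11A1* thus gave the same sign of mean and different calls.

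Of the other fibrillar chains, *COL27A1*, known from developing cartilage, was higher. Its log2 ratios were 0.36, 0.28, 0.22 and 0.44, with a mean of 0.33 ± 0.10 (SD, *n* 4) and an adjusted p of 0.0185. Its probe was dimmer than 93.4% of tested probes and well above background in Cy3 on 3 of 4 arrays and in Cy5 on 4. It thus passed the filter through the HMB-treated cells, where it was higher, so its call adds no support. It was not tested when both dyes were required. The other probe of *COL27A1*, with a mean of −1.63, was well above background in Cy3 on 1 array and in Cy5 on 0, and was not tested. With normexp and loess its mean was 0.13 (adjusted p 0.115), without lowess 0.11 (adjusted p 0.34), and over the 12 settings that tested it the adjusted p ranged from 0.0185 to 0.34. Without array 2 its adjusted p was 0.077 and without array 3 it was 0.056. *COL2A1*, at the probe printed above, had log2 ratios of −0.13, −0.25, −0.15 and −0.03, a mean of −0.14 and an adjusted p of 0.16. Without lowess the mean was −0.31 with an adjusted p of 0.021. Without array 4 this probe had a mean of −0.18 with an adjusted p of 0.11, and another probe of the gene, then brighter and tested, had 0.08 with an adjusted p of 0.68. Its probe was dimmer than 93.8% of tested probes, and the other 5 probes of the gene were not tested with all 4 arrays.

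The basement membrane chains of type IV are encoded in head-to-head pairs, and *COL4A1* and *COL4A2* combine in the same trimer. *COL4A1* (chr17:76381849-76381908, - strand) was lower, with log2 ratios of −0.32, −0.38, −0.32 and −0.17, a mean of −0.30 ± 0.09 (SD, *n* 4) and an adjusted p of 0.023. *COL4A2* (chr17:76714431-76714490, + strand) had 0.37, −0.03, −0.39 and 0.08, with a mean of 0.01 ± 0.31 (SD, *n* 4) and an adjusted p of 0.98. The difference between these chains was not tested. The 5 overlapping probes of *COL4A1* at another place had means of −0.15 to −0.13 and adjusted p-values of 0.25 to 0.33. Averaged over its probes, *COL4A1* had a mean of −0.16 (adjusted p 0.19). Without lowess the probe that stands for the gene had −0.23 (adjusted p 0.0565), and the other 5 had −0.14 to −0.09. Over the 13 settings its adjusted p ranged from 0.012 to 0.19, and it was 0.055, 0.12 and 0.097 without array 1, 2 and 3. *COL4A3*, *COL4A4*, *COL4A5* and *COL4A6* were not well above background.

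*COL8A2*, a short chain that forms hexagonal networks, fell with the smallest spread of the called members. Its log2 ratios were −0.49, −0.60, −0.64 and −0.62, with a mean of −0.59 ± 0.07 (SD, *n* 4), 0.67 times the control level, and an adjusted p of 0.0030. All 4 arrays lay within a narrow range below 0. The gene has 1 probe, so no other place could be compared. Without lowess its mean was −0.57, with normexp and loess −0.54, and over the 13 settings the adjusted p ranged from 0.0017 to 0.037.

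*COL18A1*, a heparan sulphate proteoglycan of basement membranes and the source of endostatin, had log2 ratios of −0.16, −0.46, −0.40 and −0.43. Its mean was −0.36 ± 0.14 (SD, *n* 4) with an adjusted p of 0.019, and 6 of its 6 probes, at 2 places, passed the threshold. Without lowess the 5 overlapping probes at the brighter place had means of 0.02 to 0.10, with 0.06 for the probe that stands for the gene, whereas the probe at the other place, of another transcript, stayed at −0.22. The direction thus depended on lowess at 1 of the 2 places. Tested probes of similar brightness to that place had a median of 0.32 without lowess, above its means of 0.02 to 0.10. The adjusted p of the gene over the 13 settings ranged from 0.0087 to 0.53. Without array 2 it was 0.094 and without array 3 it was 0.083. *COL13A1*, a transmembrane chain found at cell adhesions and the neuromuscular junction, had log2 ratios of −0.34, −0.24, −0.78 and −0.37, with a mean of −0.43 ± 0.24 (SD, *n* 4) and an adjusted p of 0.027. It was dimmer than 92.9% of tested probes. Its 8 tested probes had means of −0.51 to −0.14, all below 0, and 4 of the 8 passed the threshold, of which 1 was well above background in Cy5 on 3 of 4 arrays. At this probe the adjusted p ranged from 0.012 to 0.14 over the settings, and without array 4 the mean was −0.45 with an adjusted p of 0.057. On the other 3 arrays another probe was brightest and stood for the gene, with a mean of −0.22 and an adjusted p of 0.18. With normexp and loess the mean was −0.25, and without lowess −0.58.

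Type VI collagen forms beaded filaments around muscle fibres and belongs to the surroundings of satellite cells. Its chains had means of 0.13 (*COL6A1*), 0.21 (*COL6A2*) and 0.19 (*COL6A3*), with adjusted p-values of 0.32, 0.13 and 0.36. On array 1 all 3 lay at their highest, between 0.40 and 0.68. *COL7A1*, the chain of anchoring fibrils, had a mean of −0.03 (adjusted p 0.87). For these 4 chains, limma called 0, the unadjusted p was under 0.05 for 0, and a test of each probe on its own variance called 0. The probes of *COL6A2* had means of 0.21 and −0.03, and those of *COL6A3* of 0.19 and 0.35. Without lowess *COL6A3* had a mean of 0.37 and passed the threshold.

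Of the fibril-associated chains, which lie on the surface of fibrils, 4 of 9 were tested. *COL12A1*, a chain of tendon and muscle connective tissue, had log2 ratios of 0.02, −0.46, −0.61 and −1.04, with a mean of −0.52 ± 0.44 (SD, *n* 4) and an adjusted p of 0.0625. Without array 1 its mean was −0.70 with an adjusted p of 0.030, and without lowess −0.19 with an adjusted p of 0.29. Over the 13 settings the adjusted p ranged from 0.030 to 0.29. Its 5 overlapping probes at the 3′ end had means of −0.53 to −0.51, and a probe nearer the 5′ end had −0.10. The others were *COL22A1*, a chain of the myotendinous junction (mean −0.12, adjusted p 0.29), *COL19A1* (0.12, 0.24) and *COL16A1* (0.02, 0.93).

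Hydroxylation of proline stabilises the collagen helix. The single prolyl 4-hydroxylase among the members, *P4HA3*, had log2 ratios of 0.25, −0.04, −0.05 and −0.26, with a mean of −0.03 and an adjusted p of 0.86. Lysyl hydroxylases prepare lysines for glycosylation and crosslinking. Of them, *PLOD2*, which acts on the telopeptides and so directs crosslinks to a more stable form, was lower. Its log2 ratios were −0.60, −0.26, −0.31 and −0.89, with a mean of −0.52 ± 0.29 (SD, *n* 4), 0.70 times the control level, and an adjusted p of 0.025. All 4 arrays were below 0, with arrays 1 and 4 lowest.

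The other 2 probes of *PLOD2* had means of −0.43 and −0.42 and adjusted p-values of 0.057 and 0.055. Without lowess its mean was −0.27 with an adjusted p of 0.13, and over the 13 settings the adjusted p ranged from 0.014 to 0.15. Without array 1 it was 0.076 and without array 3 it was 0.052. *PLOD1*, which acts on lysines of the helix, had 0.46, −0.40, −0.08 and −0.05, with a mean of −0.01 and an adjusted p of 0.95. *PLOD3*, which also adds sugars to hydroxylysine, had 0.44, −0.15, −0.18 and −0.31, with a mean of −0.05 and an adjusted p of 0.80. For both, array 1 was above 0 and the others below.

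The lysyl oxidases oxidise lysines for crosslinks of collagen and elastin. Of their 4 members, 3 (75%) passed the threshold, in both directions, against 22.4% of all tested genes. *LOX* itself, recognised from its description and given below, did not pass the threshold (adjusted p 0.066) and is not in this share. *LOXL2* had log2 ratios of −0.17, −0.56, −0.70 and −1.0, with a mean of −0.61 ± 0.35 (SD, *n* 4), 0.66 times the control level, and an adjusted p of 0.023. *LOXL1*, known for its part in elastic fibres, had −0.16, −0.40, −0.62 and −0.54, with a mean of −0.43 ± 0.20 (SD, *n* 4) and an adjusted p of 0.021. Both were lower on 4 of 4 arrays, least on array 1. Without lowess *LOXL2* had a mean of −0.26 with an adjusted p of 0.097, and *LOXL1* had 0.005 with an adjusted p of 0.97, so that the fall of *LOXL1* depended on lowess. Over the 13 settings the adjusted p ranged from 0.013 to 0.15 for *LOXL2* and from 0.010 to 0.97 for *LOXL1*. Without array 2 and 3 the adjusted p of *LOXL2* was 0.069 and 0.0845, and without array 2, 3 and 4 that of *LOXL1* was 0.075, 0.085 and 0.056.

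*LOXL3* was higher, with log2 ratios of 0.83, 0.26, 0.51 and 0.39, a mean of 0.50 ± 0.24 (SD, *n* 4), 1.41 times the control level, and an adjusted p of 0.019. It was above 0 on 4 of 4 arrays. Its 5 overlapping probes at 1 place, each crossing an exon boundary, all passed the threshold, with means of 0.43 to 0.50. A dim probe at another place had a mean of 0.64, but was well above background in Cy3 on 1 of 4 arrays and passed the filter through the HMB-treated cells alone, so it adds no support. Without lowess its mean was 0.48, with normexp and loess 0.35, and over the 13 settings the adjusted p ranged from 0.012 to 0.12, with 0.071 without array 3. *LOXL4* had 0.02, −0.22, 0.06 and −0.30, with a mean of −0.11 and an adjusted p of 0.38. The 5 probes of *LOXL1*, of *LOXL2* and of *LOXL4* each overlap at 1 place, so that their probes are not separate measurements.

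*SERPINH1* had log2 ratios of 0.35, −0.09, −0.18 and −0.20, with a mean of −0.03 ± 0.26 (SD, *n* 4) and an adjusted p of 0.86. *PCOLCE*, which enhances removal of the C-propeptide, had 0.09, −0.45, −0.33 and −0.58, with a mean of −0.32 ± 0.29 (SD, *n* 4) and an adjusted p of 0.092. Over the 13 settings the adjusted p of *PCOLCE* ranged from 0.0089, without lowess and above 0, to 0.53, and without array 1 it was 0.025 with a mean of −0.45. For both genes array 1 was above 0 and the others were below.

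Over all tested members, 90 probes lay at 46 places. Of the 29 genes, 14 had 1 tested probe, 3 had several at 1 place and 12 had several places. The probes of a gene differed in sign or in call for *COL1A2*, *COL3A1*, *COL4A1*, *COL6A2*, *COL11A1*, *COL13A1* and *PLOD2*, as given above. Of the 90 probes, 20 are spread over more than 60 bases of EquCab1 and so cross an exon boundary, and 7 have no assigned chromosome.

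**Figure D3:**
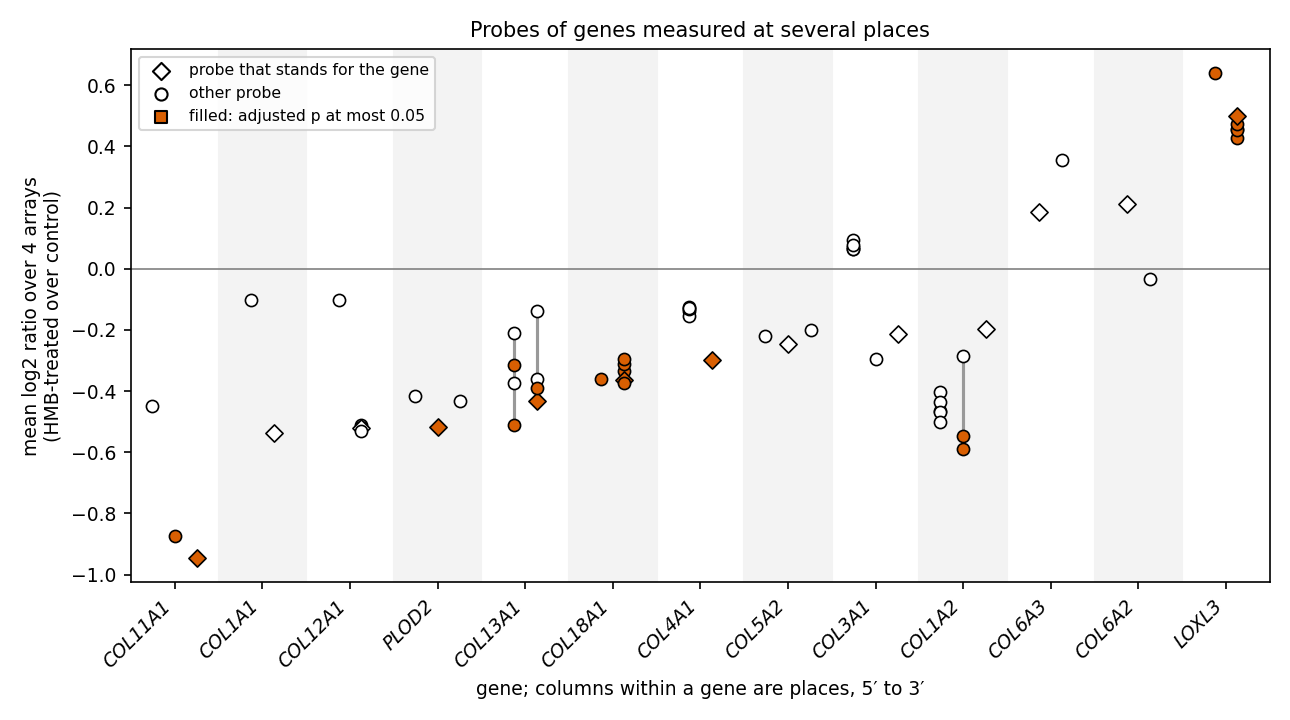
Mean log2 ratio over 4 arrays (vertical axis) of each tested probe of the 12 members with several places and of *COL1A1*, which is named by description. Columns within a gene are places in the genome from 5′ to 3′ on its strand, diamonds are the probes that stand for the gene and filled symbols have an adjusted p of at most 0.05; 5 overlapping probes of *LOXL3* lie between 0.43 and 0.50, and those of *COL3A1* on both sides of 0.

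The 8 genes recognised from the description were all tested, and 2 (25%) were lower, against 11.6% of all tested genes. *COL5A1*, the partner of *COL5A2* in type V collagen, had log2 ratios of −0.21, −0.35, −0.25 and −0.44, with a mean of −0.31 ± 0.10 (SD, *n* 4) and an adjusted p of 0.022. *COL8A1*, the partner of *COL8A2*, had −0.58, −0.77, −0.95 and −0.40, with a mean of −0.67 ± 0.23 (SD, *n* 4), 0.63 times the control level, and an adjusted p of 0.0074. Both chains of type VIII collagen were thus lower on 4 of 4 arrays. Each rests on 1 probe, and the probes of *COL8A1* and *COL8A2* share a run of bases, so their values may not be fully separate measurements. Over the 13 settings the adjusted p ranged from 0.011 to 0.11 for *COL5A1* and from 0.0035 to 0.087 for *COL8A1*, and both kept their sign. *COL5A1* had an adjusted p of 0.11 without array 2 and 0.074 without array 3.

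*COL1A1*, the α1 chain of type I collagen, had log2 ratios of 0.31, −0.56, −0.64 and −1.26, with a mean of −0.54 ± 0.64 (SD, *n* 4) and an adjusted p of 0.14. Array 1 was above 0 and array 4 lowest, as for *COL1A2*. Its other probe, of another transcript, had a mean of −0.10, and without lowess the mean of the gene was 0.11. Without array 1 its mean was −0.82 with an adjusted p of 0.032, in a range of 0.032 to 0.67 over the 13 settings. *COL5A3* had 0.24, −0.40, −0.34 and −0.90, with a mean of −0.35 and an adjusted p of 0.18. *COL15A1*, related to *COL18A1*, had a mean of −0.11 (adjusted p 0.26).

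*P4HA1*, the main catalytic subunit of prolyl 4-hydroxylase in many cells, had log2 ratios of −0.05, −0.35, −0.29 and −0.86, with a mean of −0.39 ± 0.34 (SD, *n* 4) and an adjusted p of 0.078. Without lowess its mean was −0.23, and over the 13 settings the adjusted p ranged from 0.041 to 0.244. *P4HA2* had 0.08, −0.14, −0.12 and −0.52, with a mean of −0.18 and an adjusted p of 0.26. *LOX* had −0.30, −0.27, −0.31 and −1.17, with a mean of −0.51 ± 0.44 (SD, *n* 4) and an adjusted p of 0.066. All 4 arrays were below 0, with array 4 apart, and without array 4 the mean was −0.29 with an adjusted p of 0.033, in a range of 0.033 to 0.24. The median of the 8 genes was −0.37, or −0.23 without lowess, where *COL1A1*, *COL15A1* and *P4HA2* lay above 0. With these genes counted, 12 of 37 (32.4%) passed the threshold, 2 higher and 10 lower, against 22.4% of all tested genes, a count added after the annotation had been read.

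The remaining 19 members were not well above background by the filter and were not tested. They were the fibrillar chains *COL11A2* and *COL24A1*, the basement membrane chains *COL4A3* to *COL4A6* named above, *COL6A5*, *COL6A6* and *COL10A1*. Also among them were the fibril-associated chains *COL9A1*, *COL9A2*, *COL9A3*, *COL14A1* and *COL21A1*, the transmembrane chains *COL17A1*, *COL23A1* and *COL25A1*, and *COL26A1* and *COL28A1*. *COL20A1* had no probe by symbol or description.

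Other genes of collagen biosynthesis, for folding, export and propeptide cleavage, numbered 25 with a probe, of which 22 were tested. Of these, 5 (22.7%) passed the threshold, 2 higher and 3 lower, much the same share as the 22.4% of all tested genes, and the median of the 22 was 0.02. *PCOLCE2*, a relative of *PCOLCE*, was higher with log2 ratios of 0.71, 0.59, 0.57 and 0.68, a mean of 0.64 ± 0.07 (SD, *n* 4) and an adjusted p of 0.0023. *ADAMTS3*, an N-proteinase of procollagen, was higher with a mean of 0.39 (adjusted p 0.029), whereas its relatives *ADAMTS14* (−0.57, adjusted p 0.015) and *ADAMTS2* (−0.23, adjusted p 0.049) were lower. The dim probe of *ADAMTS14* had −0.23 with normexp and loess, and *ADAMTS2* had −0.09 without lowess. *TMEM38B*, an ion channel of the endoplasmic reticulum whose loss impairs collagen modification, was lower with a mean of −0.63 and an adjusted p of 0.00425. The chaperones and isomerases that handle the new chains, *P4HB*, *PPIB*, *FKBP10* and *CRTAP*, had means of −0.07, −0.01, −0.01 and −0.05. Without lowess 6 of the 22 were higher and 2 lower. The count of 5 became 2 when array 2 was left out, and 3 when array 3 or 4 was. Of the tested probes of *ADAMTS3*, 3 of 4 passed the threshold, 1 of them through the HMB-treated cells alone, and of *ADAMTS2* 2 of 5.

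Of the receptors of collagen, 7 of 9 with a probe were tested and 1 (14.3%) passed the threshold, against 22.4% of all tested genes. *DDR1*, a receptor tyrosine kinase that binds collagen, was lower with log2 ratios of −0.44, −0.68, −0.81 and −1.15, a mean of −0.77 ± 0.30 (SD, *n* 4) and an adjusted p of 0.0084. Its relative *DDR2* had 0.66, −0.04, −0.15 and −1.07, with a mean of −0.15 and an adjusted p of 0.70. The integrin chains *ITGA1*, *ITGA2*, *ITGA11* and *ITGB1* had means of 0.02, −0.11, −0.50 and −0.29, with adjusted p-values of 0.85, 0.70, 0.0665 and 0.088.

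All 11 genes for matrix proteins that bind collagen fibrils were tested, and 4 (36.4%) were lower, against 11.6% lower over all tested genes. They were the small leucine-rich proteoglycans *FMOD* (mean −0.92, adjusted p 0.0080) and *OGN* (−0.62, adjusted p 0.0445), *SPARC* (−0.67, adjusted p 0.016), which binds procollagen, and *TNXB* (−0.39, adjusted p 0.047). On arrays 1 to 4 *OGN* had −0.55, −0.42, −0.23 and −1.29, so its mean leaned on array 4. *DCN*, *LUM* and *BGN*, of the same family as *FMOD*, had means of 0.15, 0.01 and 0.11. The other genes of the list that did not pass were *ASPN* (−0.46), *FN1* (−0.41), *PRELP* (−0.40) and *DPT* (0.20). The median of the list was −0.40, but 0.30 without lowess, where 6 genes were higher and 4 lower, and without array 3 only 1 gene was lower. Without array 2 the count was 1, or 2 with the same probe kept for *SPARC*. *SPARC* was among the bright probes and had 0.32 without lowess and −0.32 with normexp and loess, where *TNXB* had −0.23. The probes of *FMOD* (4 of 7 past the threshold, 2 of them through the control cells alone), *SPARC* (3 of 8) and *DCN* (1 of 2) differed in call, and those of *LUM* in sign.

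Markers of the cell types that make or border the matrix were read on the same arrays. Of the fibroblast markers, 8 of 9 were tested and 2 (25%) were higher, against 10.9% of all tested genes, *PDGFRA* with a mean of 1.53 ± 0.47 (SD, *n* 4; adjusted p 0.0036) and *FAP* with 0.42 ± 0.18 (SD, *n* 4; adjusted p 0.0185). The median of the fibroblast markers was 0.24, 0.15, 0.08 and 0.00 on arrays 1 to 4. The median of their means was 0.13, but 0.35 with normexp and loess and 0.75 without lowess, and *TCF21* was not well above background. *S100A4*, *VIM* and *DCN* lay in the brightest of the 40 bins of intensity, which had a median of 0.80 without lowess. There they had 1.01, 0.95 and 0.92, against 1.04 over the brightest 1% of tested probes, so the 0.75 is not read as a stronger rise. Of the markers that did not pass the threshold, *PDGFRB* and *THY1* had means of −0.01 and −0.10 (adjusted p 0.89 and 0.43). *VIM*, *DCN*, *S100A4* and *LUM* had 0.16, 0.15, 0.10 and 0.01. The tested probes of *S100A4* differed in sign, with means of 0.10 and −0.20. *PDGFRA* is dim and had 0.89 with normexp and loess. Of the myogenic markers, 8 of 9 were tested and all 8 were lower, against 11.6% of all tested genes. With each probe tested on its own variance, 0 of these 8 and 0 of the fibroblast markers passed the threshold. The medians of the myogenic markers were −0.45, −0.92, −1.11 and −1.29 on arrays 1 to 4. They were least on array 1 and most on array 4, the arrays at the ends of the range of the members too. This order was not particular to the myogenic markers. Arrays 1 and 4 were also at the ends for the other biosynthesis genes (0.23 and −0.14), the receptors (−0.14 and −0.62) and the fibril-binding genes (−0.03 and −0.78). The same held for the fibroblast markers and the smooth muscle and pericyte markers. Over all tested genes both arrays had a median of 0.01. *MYH8*, *MYH3*, *MYF5*, *ACTA1* and *DES* had means of −1.93, −1.11, −1.01, −0.98 and −0.98, *CKM*, *MYOD1* and *MYOG* of −0.80, −0.46 and −0.42, and *PAX7* was not well above background. The median of the myogenic means was −0.98, or −0.55 without lowess, where all 8 stayed below 0 and *MYH3* and *ACTA1* had −0.37 and −0.38. The other probe of *MYOD1* had a mean of −0.20 and did not pass the threshold.

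Of the smooth muscle and pericyte markers, 5 of 6 were tested and 2 (40%) were lower, against 11.6% of all tested genes, *MYH11* (−1.18, adjusted p 0.037) and *MCAM* (−0.85, adjusted p 0.0032). Both are dim and passed the filter through the control cells alone, so the 40% rests on them and adds no support. Cy5 was well above background on 3 of 4 arrays for *MYH11* and 2 of 4 for *MCAM*. With normexp and loess they had −0.45 and −0.38. The medians of the smooth muscle and pericyte markers were −0.19, −0.28, −0.32 and −1.10 on arrays 1 to 4. *RGS5* was not well above background, and *ACTA2* had a mean of −0.53 (adjusted p 0.093). *CNN1* had a mean of −0.39 (adjusted p 0.15), whereas *CSPG4* had 0.06 (adjusted p 0.51). None of the 5 endothelial markers with a probe (*PECAM1*, *CDH5*, *KDR*, *VWF*, *TEK*) and none of the 4 adipocyte markers (*ADIPOQ*, *FABP4*, *PLIN1*, *PPARG*) was well above background. Of the leukocyte markers 3 of 5 were tested, and 1 (33.3%, against 10.9% of all tested genes) was higher, *PTPRC* (0.28, or 0.51 without lowess, adjusted p 0.037), but of its 8 tested probes 6 were higher and 1 lower past the threshold, the latter through the control cells alone, and *CD3E* and *CSF1R* were not well above background. *CD68* and *CD14* had means of −0.29 and 0.02. The part of a change in cell types in the ratios of the chains and enzymes was not tested.

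**Figure D4:**
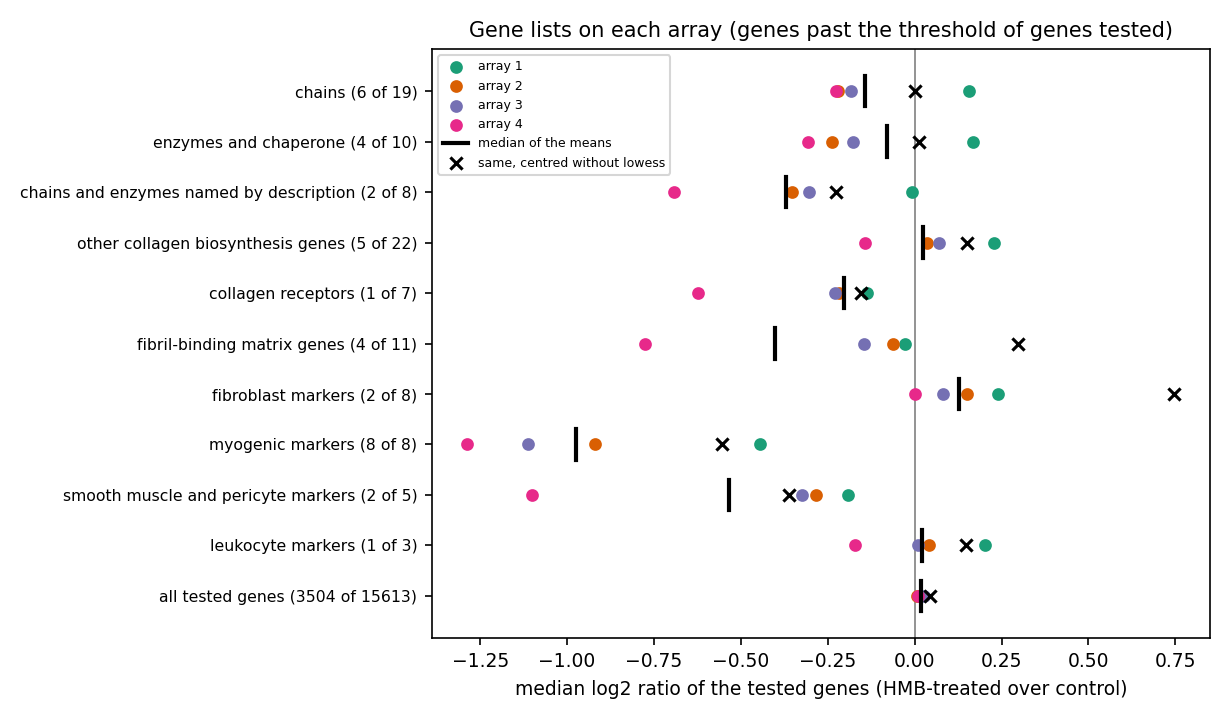
Median log2 ratio of the tested genes of each list (horizontal axis) on each of the 4 arrays (points), with the median of the genes' means (black bar) and the same without lowess (cross). Counts in brackets are genes past the threshold of genes tested; the myogenic markers lie lowest, at −0.45 to −1.29, and the chains and enzymes lie above 0 on array 1 and below it on the others.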

How the data were processed

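The members and the other lists were chosen with earlier results of these data known. A gene was a member when its symbol matched the rule of the part. The genes named by description, and the count that adds them, were chosen after the files had been read.

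The deposited ratios of the authors are log10 of Cy5 over Cy3 after lowess, and were multiplied by 3.32 to give log2. The deposited processed intensity of both dyes, on a linear scale, gave probe brightness. The summary file held the same ratios, with a largest difference of 0. On each array, 1417 control spots were dropped, as were 11, 17, 32 and 15 spots marked non-uniform or population outlier in either dye. Repeated spots were averaged by probe. Testing asked for 1 dye that was well above background on every array with a reading, and for at least 3 values, which left 27383 tested probes and 16220 below the filter. An intercept was fitted per probe in limma with empirical Bayes moderation, and p-values were adjusted by Benjamini-Hochberg over all tested probes, with a threshold of 0.05.

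The paper's methods name GeneSpring defaults and the Benjamini-Hochberg adjustment, and no test by name. The alternatives tried were loess after normexp (offset 50), ratios of background-subtracted signals with median centring only, a test of each probe on its own variance without moderation, an intensity trend with a robust prior, and both dyes well above background. Others were no filter, marked spots kept, the ratios of the summary file, an added minimum of 1.3-fold, averaging a gene's probes, and leaving out 1 array at a time with at least 2 values. The brightest tested probe of a gene was chosen anew in each, which changed the probe of COL2A1, COL13A1 and ADAMTS2 without array 4, of DPT without array 3 and of SPARC without array 2. An alternative that keeps the probe was added after the files had been read.

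The tools were R 4.3.3, limma 3.58.1, data.table (version 1.17.8), Python 3.11.15, numpy 2.4.6, pandas 2.3.3 and matplotlib 3.10.9. The code was first tested on simulated data.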

Additional observations from a re-analysis of the deposited data

Results flagged for a closer look

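Of 77 genes examined for an array apart from the others (by Dixon's ratio), 6 were marked, and about 1 in 20 would be by chance. On array 4, LOX had −1.17 (nearest other array −0.31), ASPN −2.02 (−0.03), FMOD −1.47 (−0.80), COL11A1 −1.92 (−0.72) and PPIB −0.40 (0.09). On array 1, BGN had 0.50 (−0.00075). COL11A1 and FMOD passed the threshold with these values kept.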

How the results depend on the processing

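Over all tested probes 6257 passed the threshold. The count was 768 by the unmoderated test of each probe on its own variance, 3690 with no filter on dim probes, 3863 with a minimum of 1.3-fold, and 2573 to 4957 with an array left out. Without lowess it was 7831, of which 59.2% were higher, against 49.1%.

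Members past the threshold and higher numbered 2. There were 1 with normexp and loess, 6 centred without lowess, 0 by the unmoderated test, 1 with both dyes above background, 1 with a minimum of 1.3-fold, and 0 to 2 with an array left out. Members past it and lower numbered 8. There were 4 without lowess, 1 by the unmoderated test, 2 with no filter, and 1 to 7 with an array left out. With the genes named by description there were 2 higher and 10 lower.

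Other biosynthesis genes past it numbered 5, with 8 without lowess, 1 by the unmoderated test, 2 with no filter, and 2 to 4 with an array left out. Receptors numbered 1, with 3 by normexp and loess, 2 without lowess, 0 by the unmoderated test, 0 with no filter, and 1 to 2 with an array left out. Fibril-binding genes numbered 4, with 10 without lowess, 0 by the unmoderated test, 0 with no filter, and 1 to 3 with an array left out. With the same probe kept for each gene, there were 2 fibril-binding genes without array 2 and 1 without array 3, and 3 other biosynthesis genes without array 4.

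The median of the brightest 1% of probes was 0.11, then 0.41 with normexp and loess and 1.04 without lowess. The members' median was −0.12, and −0.19 to −0.04 with an array left out. Of the members past the threshold with or without lowess, 6 turned in sign without it, at the probe that stands for the gene. They were COL18A1 (0.063), COL1A2 (0.86), COL3A1 (0.75), COL5A2 (0.28), LOXL1 (0.0047) and PCOLCE (0.44). The sign also turned for members past it in neither: COL4A2 (−0.13), COL19A1 (−2.6e-05), PLOD1 (0.03), PLOD3 (0.02) and SERPINH1 (0.03).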
